A study of Mus musculus with 5 samples.

Results

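The MHC class II genes described here were H2-Aa, H2-Ab1, H2-Eb1, H2-DMa, H2-DMb1, Cd74 and Ciita, which are 7 of the 27998 genes counted in each library. They were chosen by symbol, and all 7 symbols were found once in every library. Their unique molecular identifiers (UMIs, each standing for a captured transcript) were compared across the myeloid, lymphoid, luminal and fibroblast barcodes of 5 scRNAseq libraries of the mouse mammary gland. Each library came from whole, unsorted 4th mammary glands of female BALB/cj mice that had been ovariectomized, aged for 20 weeks after the operation and then treated for 1 week, to an age of 30 weeks. Ovariectomy was common to all groups, so that no library showed an intact gland. OVX received vehicle, OVX_E2 received 17β-estradiol at 1 µg per animal, and OVX_E2_P4 received this and progesterone at 0.1 mg per animal. OVX_E2_PBDE and OVX_E2_P4_PBDE received the same hormones and food with polybrominated diphenyl ethers (PBDEs), which are flame retardants, in which BDE-47 made up 7.1 mg/kg, BDE-153 0.9 mg/kg and BDE-100 0.4 mg/kg.

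MHC class II molecules carry peptides from ingested proteins to the surface of antigen-presenting cells, where CD4+ T cells read them. The α and β chains meet the invariant chain in the endoplasmic reticulum, lysosomal proteases trim that chain, and the H2-DM heterodimer exchanges its last fragment for a peptide. Dendritic cells, macrophages and B cells make these molecules constitutively, and interferon-γ can induce them in other cells through the coactivator CIITA. In the mammary gland, macrophages and dendritic cells lie along and within the ducts. RNA released from them during dissociation enters the cell suspension and can reach the droplet of any other cell of the library.

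The members were ordered by role. H2-Aa and H2-Ab1 encode the α and β chains of I-A, and H2-Eb1 encodes the β chain of I-E. Cd74 encodes the invariant chain, H2-DMa and H2-DMb1 encode the chains of the peptide exchange factor H2-DM, and Ciita encodes the coactivator that switches the family on. In GENCODE release M21 on GRCm38, 5 of the members lay within 197134 bases of chromosome 17, in the order H2-DMa (chr17:34119541-34139101, + strand), H2-DMb1 (chr17:34153072-34160230, + strand), H2-Ab1 (chr17:34257689-34269419, + strand), H2-Aa (chr17:34282744-34287823, - strand) and H2-Eb1 (chr17:34305867-34316674, + strand). Ciita lay at chr16:10480059-10528418 on the + strand.

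Class II promoters are known for a module of an X box, bound by the RFX complex, and a Y box, bound by NF-Y, on which CIITA assembles. Promoters of H2-Aa, H2-Eb1, H2-DMa and H2-DMb1 were searched, and those of H2-Ab1, Cd74 and Ciita were not. The windows shown are those of the members whose promoter in the RefSeq table (GRCm38.p6, 250 bases before to 50 bases after the start) held both kinds of match, 5′ to 3′ on the strand of the gene. Capitals mark first an X-type match (GNAAC, then 3 or 4 bases of any kind, then GANG) and then a Y-type match (TGATTGG). The lines give H2-Aa at chr17:34287852-34287919 (- strand), H2-Eb1 at chr17:34305761-34305827 (+ strand) and H2-DMb1 at chr17:34153082-34153149 (+ strand).
H2-Aa: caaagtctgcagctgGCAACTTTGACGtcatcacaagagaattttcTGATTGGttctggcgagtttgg
H2-Eb1: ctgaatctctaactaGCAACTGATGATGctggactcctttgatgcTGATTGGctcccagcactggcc
H2-DMb1: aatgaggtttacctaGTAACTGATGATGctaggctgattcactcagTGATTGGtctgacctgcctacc

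Between the X-type and the Y-type match lay 19 bases in H2-Aa, 17 in H2-Eb1 and 18 in H2-DMb1. The Y-type match ended 43, 54 and 56 bases before the start, respectively. Across 32851 promoter windows of this length, searched on both strands, 7.82% held the Y-type letters, 7.81% the X-type letters, and 0.0517% (17 windows) both with 12 to 22 bases between them. The letters and the spacing were set with these windows in view, and the matches do not overlap each other. Of the related genes, H2-Ob held the pair, whereas H2-Eb2, H2-DMb2 and H2-Oa held the Y-type match alone. Neither of the 2 windows of H2-DMa held a match.

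The libraries held between 2233 and 3536 barcodes (14344 in all) and between 19982067 and 42012988 UMIs, with a median of 5345 to 8698 UMIs per barcode. Class II UMIs numbered 33099 (OVX), 20528 (OVX_E2), 35446 (OVX_E2_PBDE), 26204 (OVX_E2_P4) and 13406 (OVX_E2_P4_PBDE). Between 24 and 42 barcode sequences per library also occurred in another library. Clustering gave 531 immune barcodes, of which 401 were named (284 myeloid, 117 lymphoid) and 130 also carried fibroblast or luminal markers, besides 13764 non-immune barcodes. The study had 8 mice per group, and the number behind each library is not given. Since a group was 1 library, differences between groups were not tested, and each 95% interval below covers counting error only. Both PBDE libraries were numbered apart from the other 3, so that a batch following that numbering cannot be told apart from PBDE. BALB/c mice carry another MHC haplotype than the reference genome, and its effect on the counts was not tested.

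Class II transcripts were held mostly by the immune barcodes, which were few. The 401 named immune barcodes carried 82.25% of the 27563 H2-Aa UMIs, 78.30% of the 20927 H2-Ab1 UMIs and 80.84% of the 16942 H2-Eb1 UMIs. For Cd74, the most counted member, they carried 81.72% of 58913 UMIs. H2-DMb1 had 83.60% of its 1847 UMIs there, but H2-DMa only 60.16% of 2465, with 33.31% of its UMIs in non-immune barcodes against 9.15% for H2-DMb1. Ciita was counted 26 times in all, 15.14 CPM in macrophage-like cells (11 UMIs, 7.556 to 27.08) and 2.248 CPM in dendritic-like cells (2 UMIs, 0.2723 to 8.122). Named immune barcodes held 57.69% of these 26 UMIs and non-immune barcodes 38.46%. CPM is the UMIs of a gene summed over a cell class per 1000000 UMIs of that class. In a 3′ library a transcript gives 1 tag whatever its length, so that levels were not divided by length.

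Over the 5 libraries together, the summed class II level was 66940 CPM in macrophage-like cells, 54570 CPM in dendritic-like cells and 39560 CPM in monocyte-like cells. Plasma-like cells followed at 7419 CPM and T/NK-like cells at 2147 CPM. Every non-immune class was far lower, between 102.8 CPM in L-Hor-like cells and 171.7 CPM in basal-like cells. By library, the ranges of macrophage-like (34500 to 79360), dendritic-like (44560 to 67900) and monocyte-like cells (2697 to 83620) overlapped. Plasma-like (6523 to 12430) and T/NK-like cells (76.6 to 8018) overlapped each other, and the T/NK-like range reached down into that of the non-immune classes (47.58 to 494.7).

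**Figure D1:**
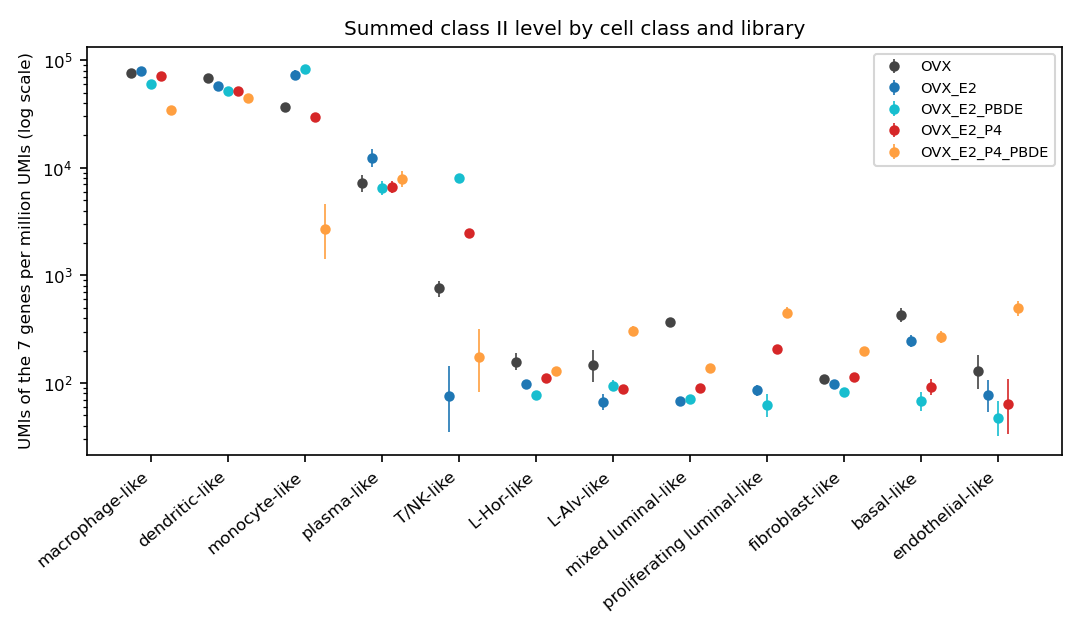
Summed level of the 7 class II genes (CPM, log axis) in each cell class, 1 point per library with the exact Poisson 95% interval for counting error. Macrophage-like and dendritic-like cells lie between 34500 and 79360 CPM in all 5 libraries, and every non-immune class lies between 47.58 and 494.7 CPM.

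Transcripts of the I-A chains, the I-E β chain and the invariant chain were abundant in macrophage-like and dendritic-like cells of all 5 libraries. H2-Aa in macrophage-like cells was at 13690 CPM (OVX), 13830 (OVX_E2), 12170 (OVX_E2_PBDE), 13430 (OVX_E2_P4) and 6627 (OVX_E2_P4_PBDE). In dendritic-like cells it was at 14920, 14790, 14100, 13200 and 10630 CPM in the same order. The library with progesterone and PBDEs was the lowest in both cell classes, and the other 4 lay close to each other. H2-Ab1 ranged from 5620 to 11710 CPM in macrophage-like and from 7362 to 10680 CPM in dendritic-like cells. H2-Eb1 ranged from 5184 to 10720 CPM and from 5718 to 7792 CPM.

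Cd74 in macrophage-like cells was at 39110 CPM (OVX), 41060 (OVX_E2), 27180 (OVX_E2_PBDE), 34630 (OVX_E2_P4) and 15430 (OVX_E2_P4_PBDE). In dendritic-like cells it was at 32480, 24960, 21110, 21780 and 19350 CPM. Both PBDE libraries were thus below the matching library without PBDEs in both cell classes. The exchange factor genes were lower, with H2-DMa between 813.8 and 1066 CPM and H2-DMb1 between 706.3 and 1047 CPM in macrophage-like cells. In dendritic-like cells H2-DMa was between 679.1 and 849.2 CPM and H2-DMb1 between 736.2 and 1170 CPM. H2-DMb1 has a near-identical neighbour, H2-DMb2 (704.5 CPM in macrophage-like and 681.2 CPM in dendritic-like cells), so that the split of counts between the pair is uncertain.

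**Figure D2:**
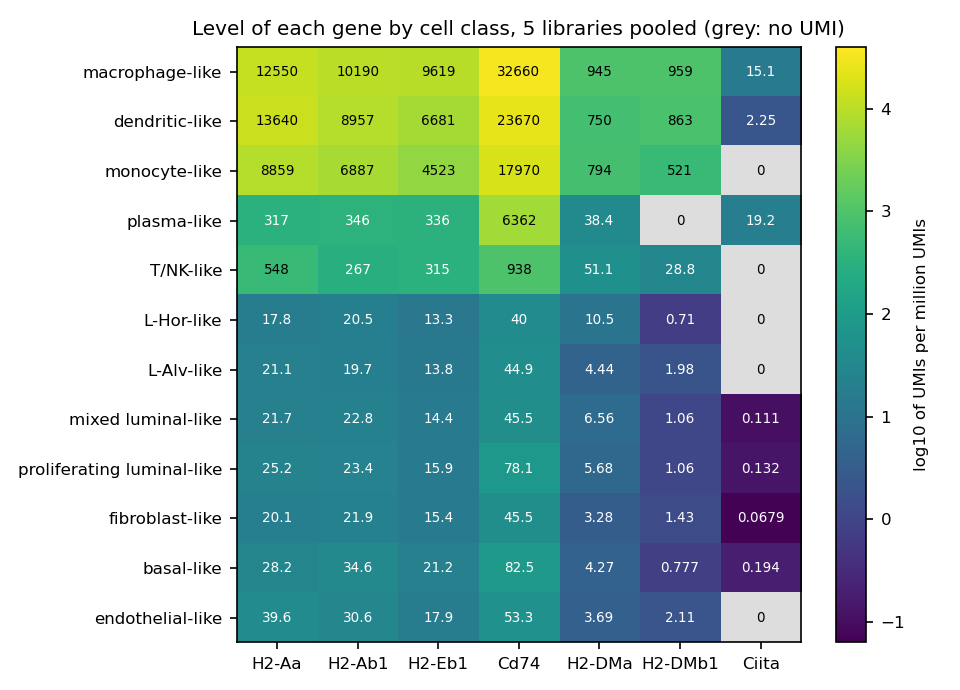
Level of each class II gene (columns) in each cell class (rows) over the 5 libraries together, with the CPM printed in each field, colour on a log10 scale and grey where no UMI was counted. Cd74 is the highest gene in macrophage-like (32660 CPM) and dendritic-like cells (23670 CPM), and in L-Hor-like cells H2-DMa is at 10.48 CPM with H2-DMb1 at 0.7101 CPM.

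The 2 macrophage-like clusters differed in level. The 73 cells led by C1qb, C1qc, C1qa and Mmp12 (I0 in the plot of single barcodes) held 85370 CPM of class II transcripts, and the 52 cells led by Lyz1, Retnla and Ccl24 (I4) held 42200 CPM. C1q genes encode complement components made by tissue macrophages, whereas Retnla is a marker of alternative activation. In the C1q cluster the level was 111100 CPM (OVX), 89010 (OVX_E2), 68810 (OVX_E2_PBDE), 84840 (OVX_E2_P4) and 66280 (OVX_E2_P4_PBDE). In the Lyz1 cluster it was 43760, 51350, 49600, 37260 and 26170 CPM. The first cluster was higher in every library. The Lyz1 cluster had no listed macrophage marker among its 10 leading genes and scored 0.381 for macrophage against 0.376 for monocyte markers, so that its name is weakly held.

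Among dendritic-like cells, the 63 cells led by Cd209a, Clec10a and Ccr7 (I2) held 67750 CPM, and the 47 cells led by Clec9a, Wdfy4 and Xcr1, which are genes of cross-presenting dendritic cells (I5), held 46850 CPM. The first was at 52580 to 78820 CPM by library and the second at 43560 to 50500 CPM, with the first higher in each. Another 25 dendritic-like cells in 2 clusters with cell cycle genes among the leading genes held 41500 and 51870 CPM. Every macrophage-like and dendritic-like barcode kept a class II UMI after thinning to 3000 UMIs. Monocyte-like cells, with 24 barcodes led by Sirpb1a, Clec4a3 and Plac8, came mostly from OVX (13 cells), and 3 of the 5 libraries held 2 or fewer.

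In T/NK-like cells class II counts were concentrated in a few barcodes. Of 102 barcodes, 46 had no class II UMI and the median was 1, while 8 barcodes with at least 20 held 94.57% of the 1344 UMIs. Of these 8, 4 had at least 2 UMIs of B-cell markers and 4 at least 2 of myeloid markers. By library the summed level was 756.6 CPM (OVX), 76.6 (OVX_E2), 8018 (OVX_E2_PBDE), 2479 (OVX_E2_P4) and 173.1 (OVX_E2_P4_PBDE). These values followed where the 8 barcodes fell, and the 20 NK-type cells led by Gzma, Klrd1 and Klre1 were at 73.15 CPM (10 UMIs), within the range of the non-immune classes. The 4 T/NK-like barcodes with at least 3 UMIs of B-cell markers held between 64 and 321 class II UMIs each. No cluster was named B-like, but the plasma-like cluster described next scored as high for B-cell as for plasma markers.

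**Figure D3:**
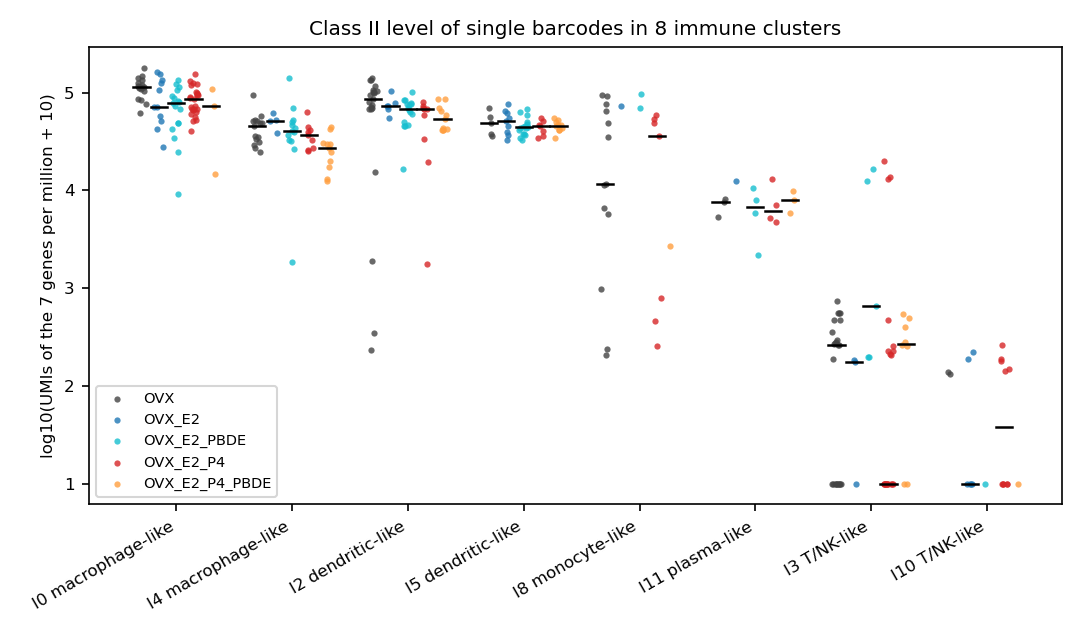
Class II level of single barcodes in 8 immune clusters, as log10(class II CPM + 10), coloured by library, with black bars at the median of each library with at least 3 barcodes. Macrophage-like (I0 and I4) and dendritic-like barcodes (I2 and I5) form high bands, whereas most T/NK-like barcodes (I3 and I10) lie at or near the floor.

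Plasma-like cells held the invariant chain with few of the chains it accompanies. The cluster comprised 15 barcodes led by Jchain, Mzb1 and Derl3, genes of antibody-secreting cells, and it held Cd79a of B cells among its leading genes. It scored 1.0 for plasma and 1.0 for B-cell markers, and 12 of the 15 barcodes held at least 3 UMIs of B-cell markers. The scores thus do not set it apart from B cells. Cd74 counted between 13 and 89 UMIs per barcode, with a median of 48, whereas H2-Aa, H2-Ab1 and H2-Eb1 together had a median of 4 and at most 26. In 6 barcodes Cd74 reached at least 10 UMIs with the chains at 2 or fewer. The ratio of Cd74 to the 3 chains was 6.365 in plasma-like cells (662 over 104 UMIs, 5.17 to 7.905). It was 1.009 (0.991 to 1.027) in macrophage-like, 0.8085 (0.7939 to 0.8233) in dendritic-like and 0.8303 (0.7429 to 0.9276) in T/NK-like cells. The interval of plasma-like cells was thus apart from those of the other immune classes.

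By library the ratio in plasma-like cells was 23.2 (OVX, 3 cells), 4.944 (OVX_E2, 1 cell), 10.8 (OVX_E2_PBDE, 4 cells), 12.88 (OVX_E2_P4, 4 cells) and 1.78 (OVX_E2_P4_PBDE, 3 cells). In each library this was above the ratio in macrophage-like cells, which ranged from 0.8696 to 1.133. The lowest library, with 50 chain UMIs in 3 cells, stood apart from the others. Without the barcodes that held at least 2 UMIs of myeloid markers the ratio over all libraries was 13.2. H2-DMb1 was not counted in these cells and H2-DMa was counted 4 times.

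**Figure D4:**
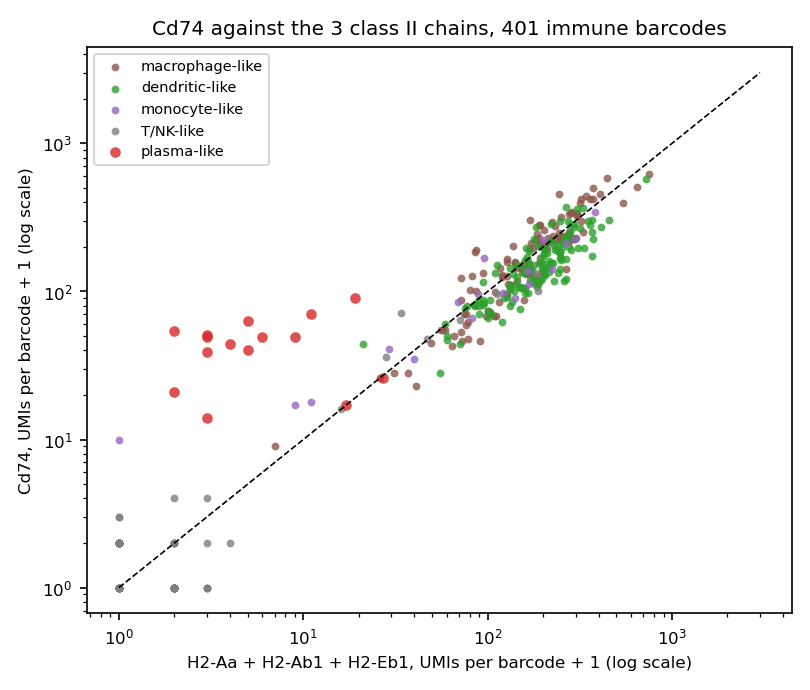
Cd74 UMIs against the summed UMIs of H2-Aa, H2-Ab1 and H2-Eb1, both plus 1 on log axes, in single named immune barcodes, with a dashed line at equal counts. Most plasma-like barcodes lie above the line, with 13 to 89 Cd74 UMIs and at most 26 chain UMIs, and macrophage-like and dendritic-like barcodes lie along it.

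Luminal and fibroblast cells held class II transcripts at a low level in all libraries. In L-Hor-like cells (the hormone-sensing luminal lineage, 2533 barcodes) the summed level was 157.9 CPM (OVX), 98.01 (OVX_E2), 77.44 (OVX_E2_PBDE), 111.2 (OVX_E2_P4) and 129.8 (OVX_E2_P4_PBDE). In L-Alv-like cells (the alveolar luminal lineage, 1081 barcodes) it was 146.3, 66.54, 94.81, 88.29 and 306.5 CPM. Fibroblast-like cells (7252 barcodes) were at 109.4, 98.04, 82.18, 114.6 and 198.3 CPM, and the median fibroblast-like barcode had no class II UMI in any library. Endothelial-like cells, with 128.5, 77.23, 47.58, 63.59 and 494.7 CPM, and basal-like cells, with 428.9, 245.5, 67.97, 91.84 and 269.8 CPM, overlapped these values and reached higher. Ciita was not counted in any L-Hor-like or L-Alv-like barcode, and it was counted 3 times in fibroblast-like cells (0.06788 CPM, 0.014 to 0.1984). Mixed luminal-like cells held 5 Ciita UMIs, and proliferating luminal-like and basal-like cells held 1 each.

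Free RNA was gauged by setting each class against the immune barcodes of its own library. Over 34 pairs of a non-immune class and a library, the class II level was between 0.1015% and 1.615% of that in the immune barcodes, with a median of 0.2431%. Of 35 immune marker genes such as Ptprc, Csf1r and Cd3e, those with at least 50 UMIs in the immune barcodes of a library were used (10 to 18 genes by library), and their summed level was between 0.3485% and 3.585%, with a median of 0.7886%. Class II genes were above the summed markers in 0 of the 34 pairs, and above the median single marker in 4 of them. Single markers spread widely. In L-Alv-like cells the highest was at 5.687% to 30.3% of its immune level by library, while the median marker was at 0.3883% to 1.636%. The part of such markers in the summed level was not tested, so that the summed level is an uncertain gauge of free RNA. In barcodes without a UMI of these markers, class II genes were at 0.06189% to 0.5023% of the immune level. This selection sets the marker level to 0, so that the class II values in it cannot be gauged against the markers.

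The share of barcodes with a class II UMI, after thinning each to 3000 UMIs, was 27.87% (OVX), 16.21% (OVX_E2), 19.67% (OVX_E2_PBDE), 22.90% (OVX_E2_P4) and 31.47% (OVX_E2_P4_PBDE) for luminal cells, against 61.69% to 73.52% without thinning. In fibroblast-like cells it was 27.56%, 18.04%, 19.30%, 27.24% and 31.94%, against 36.50% to 44.17% without thinning. Endothelial-like cells had 30.30%, 18.18%, 16.67%, 17.86% and 44.83%, and basal-like cells had 43.33%, 22.54%, 24.69%, 31.97% and 41.27%. Before thinning, the median barcode held 7554 to 14295 UMIs in luminal, 4252 to 7031 in fibroblast-like and 5588 to 11499 in basal-like cells. The luminal and fibroblast shares lay below those of basal-like cells in each library, and no expression is read from them.

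A few non-immune barcodes held many class II transcripts. At least 10 class II UMIs were found in 70 of 13764 barcodes (0.5086%), and these held 25.89% of the class II UMIs of the non-immune cells. At least 2 UMIs of immune markers were present in 62 of the 70, and none in 4. Over all barcodes of a class, the share with at least 2 such UMIs was 3.84% to 13.04% by library in L-Hor-like and 6.095% to 12.67% in fibroblast-like cells. It was 28.78% to 50.92% in mixed luminal-like cells, which made up 22 of the 70, and 13.71% to 35.9% in the other classes. In L-Alv-like cells of OVX_E2_P4_PBDE, 2 of 124 barcodes, both with immune marker UMIs, held 61.09% of the class II UMIs. In luminal cells of OVX, 1 barcode held 676 of 1605 class II UMIs.

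H2-DMa stood apart from the other members in L-Hor-like cells and, to a smaller extent, in other non-immune classes. In L-Hor-like cells it was at 6.47 CPM (OVX, 5 UMIs), 11.95 (OVX_E2, 60 UMIs), 10.24 (OVX_E2_PBDE, 73 UMIs), 11.69 (OVX_E2_P4, 86 UMIs) and 7.365 (OVX_E2_P4_PBDE, 27 UMIs). H2-DMb1, its partner chain, was at 0, 0.5976, 0.5611, 0.9519 and 0.8183 CPM. H2-DMa was the higher of the pair in every library. Against the immune barcodes of the same library, H2-DMa in L-Hor-like cells had a median level of 1.661%, whereas H2-DMb1 had 0.09375%, H2-Aa 0.2489%, H2-Ab1 0.3682%, H2-Eb1 0.2876% and Cd74 0.2336%. By this measure H2-DMa was also the highest of these members in mixed luminal-like (1.072%), L-Alv-like (0.7242%), basal-like (0.7237%) and fibroblast-like cells (0.593%). The trait was thus not limited to L-Hor-like cells, where its size was largest.

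The ratio of H2-DMa to H2-DMb1 was 14.76 in L-Hor-like cells (251 over 17 UMIs, 9.038 to 25.75) and 0.9605 in named immune cells (0.8938 to 1.032). It was 6.188 (4.549 to 8.579) in mixed luminal-like barcodes, which held markers of both lineages, 2.302 (1.701 to 3.145) in fibroblast-like, 2.24 (1.375 to 3.746) in L-Alv-like and 5.5 (1.868 to 21.96) in basal-like cells. The interval of L-Hor-like cells was above those of immune, L-Alv-like, fibroblast-like and mixed luminal-like cells and overlapped that of basal-like cells. In L-Hor-like barcodes without an immune marker UMI the counts were 169 and 9, a ratio of 18.78 (9.66 to 41.78). With the same selection the ratio was 4.6 (1.711 to 15.49) in L-Alv-like and 6.583 (3.566 to 13.28) in mixed luminal-like barcodes. Both of these intervals overlapped that of L-Hor-like barcodes. Fibroblast-like barcodes, at 2.486 (1.681 to 3.747), remained apart, and basal-like barcodes had 7 and 0 UMIs. H2-DMb2 was not added to H2-DMb1 in these ratios, and the split of counts between these near-identical genes is uncertain. A UMI of H2-DMa was found in 231 of 2533 L-Hor-like barcodes (9.12%), in 52 of 1081 L-Alv-like barcodes (4.81%), in 140 of 7252 fibroblast-like barcodes (1.931%) and in 266 of 1936 mixed luminal-like barcodes (13.74%). Of these barcodes, 103, 19, 65 and 51 held no other member, in the same order, so that this was not particular to L-Hor-like cells. No barcode of these classes held more than 4 UMIs of H2-DMa. The median depth was 8702, 9124, 5860 and 21244 UMIs in the same order of classes. After thinning to 3000 UMIs the share was 3.198% (2.547 to 3.959) in L-Hor-like, 1.203% (0.6418 to 2.048) in L-Alv-like, 0.979% (0.7654 to 1.233) in fibroblast-like and 1.498% (1.005 to 2.144) in mixed luminal-like barcodes. L-Hor-like cells thus had the highest share, with an interval apart from these other 3. The interval of basal-like barcodes, at 1.185% (0.3858 to 2.743), overlapped that of L-Hor-like barcodes. Endothelial-like barcodes were at 0.4255% (0.01077 to 2.348).

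The annotated H2-DMa gene overlaps Brd2, which lies on the opposite strand, and CR974462.3, which lies on the same strand. Brd2, a chromatin reader expressed in most cells, was at 129.3 CPM in macrophage-like, 142.3 in fibroblast-like, 153.1 in L-Alv-like and 130.3 in L-Hor-like cells. For each 100 Brd2 UMIs, L-Hor-like cells had 8.047 of H2-DMa, while fibroblast-like cells had 2.306 and L-Alv-like cells 2.897. The UMIs of CR974462.3 were not examined. The strand setting of the counting was not separately stated, and the part of reads from overlapping genes was not tested.

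**Figure D5:**
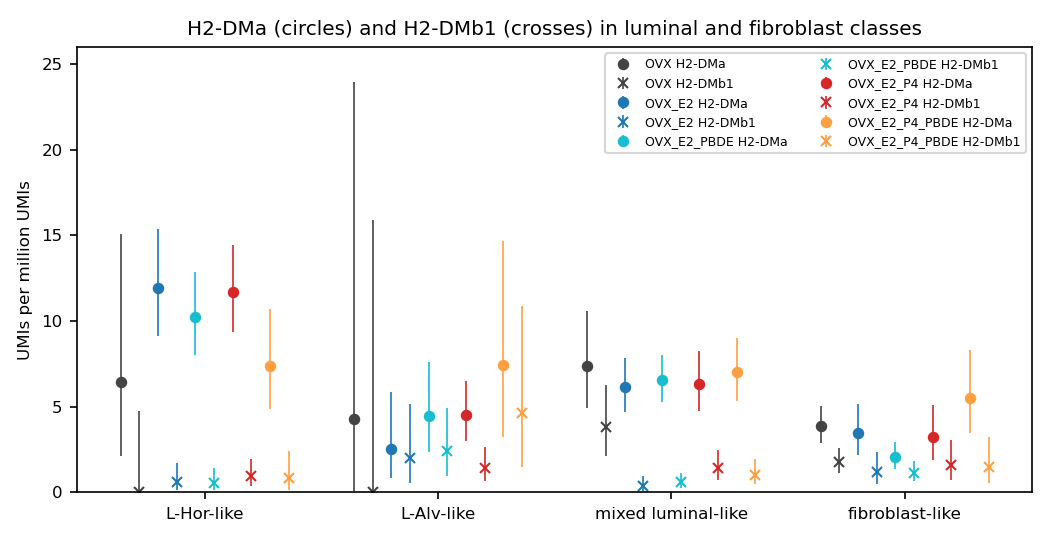
H2-DMa (circles) and H2-DMb1 levels (crosses) in CPM by library in the luminal and fibroblast-like classes, with exact Poisson 95% intervals for counting error. In L-Hor-like cells H2-DMa lies between 6.47 and 11.95 CPM and H2-DMb1 between 0 and 0.9519 CPM.

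The design implies 5 comparisons of libraries, several of which share a library. In macrophage-like cells, the summed class II level of OVX_E2 over OVX was 1.039 (1.011 to 1.068). Within the C1q cluster it was 0.8013 and within the Lyz1 cluster 1.174, so that the direction differed between the clusters. None of the 6 members with at least 50 UMIs was past 2-fold, against 7.21% of the 652 genes counted. In dendritic-like cells the ratio was 0.8535 (0.8293 to 0.8784), with 0 of 6 members past 2-fold against 10.5% of genes. Within the Cd209a cluster (6 against 21 cells) it was 0.932 (0.8932 to 0.9722), and within the Clec9a cluster (9 against 5 cells) 1.033 (0.9777 to 1.091). In L-Hor-like cells it was 0.6209, with 1 of 5 members, H2-Aa (14.54 against 40.11 CPM), lower by over 2-fold against 7.74% of genes (9.48% in either direction). Without barcodes holding 2 immune marker UMIs this count was 0 of 5. In L-Alv-like cells it was 0.4548, with the 1 member counted, Cd74, at 28.73 against 55.95 CPM (57 and 13 UMIs). These levels were within 2-fold, and only with 1 UMI added to each sum was Cd74 called lower by over 2-fold. The same call was made for 6.69% of genes (10.3% in either direction). In fibroblast-like cells the summed ratio was 0.8961, with 0 of 5 members past 2-fold against 4.01% of genes. Without barcodes holding 2 immune marker UMIs it was 0.581, and without any such UMI 0.6034, again with 0 of 5 members past 2-fold. In the fibroblast-like cells of OVX_E2, 2 of 937 barcodes held 219 of the 653 class II UMIs.

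For progesterone added without PBDEs (OVX_E2_P4 over OVX_E2), no counted member was past 2-fold in any of the 5 classes. The summed ratio was 0.894 (0.8699 to 0.9187) in macrophage-like cells, with 0 of 6 members against 3.58% of genes. It was 0.8876 in dendritic-like cells (0.7157 and 0.8626 in the Cd209a and Clec9a clusters) with 2.0% of genes past 2-fold, 1.168 in fibroblast-like cells with 1.44%, 1.135 in L-Hor-like cells with 1.43% and 1.327 in L-Alv-like cells with 1.89%. Without barcodes holding 2 immune marker UMIs the ratio was 1.643 in fibroblast-like, 1.199 in L-Hor-like and 1.307 in L-Alv-like cells, with no counted member past 2-fold. The 6 members counted in macrophage-like cells had a median log2 ratio of -0.10, and all genes one of -0.05.

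For progesterone added with PBDEs (OVX_E2_P4_PBDE over OVX_E2_PBDE), the summed ratio was below 1 in macrophage-like and dendritic-like cells. It was above 1 in L-Hor-like, L-Alv-like and fibroblast-like cells. Within the C1q and the Clec9a cluster the interval held 1. In macrophage-like cells the summed ratio was 0.5728 (0.5477 to 0.5989), with Cd74 at 15430 against 27180 CPM and 0 of 6 members past 2-fold against 10.2% of genes. Within the C1q cluster, with 3 against 17 cells, it was 0.9632 (0.8987 to 1.031), and within the Lyz1 cluster, with 11 against 13 cells, 0.5277 (0.4966 to 0.5604). H2-DMa was at 931.7 against 813.8 CPM, a ratio of 1.145 (0.8425 to 1.538), unlike the chains and Cd74, whose ratios lay between 0.5447 and 0.5763. In dendritic-like cells the summed ratio was 0.8588, with 0 of 6 members past 2-fold against 5.0% of genes, and within the Cd209a and Clec9a clusters it was 0.8853 and 0.9957 (0.9479 to 1.046).

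In the non-immune classes the same comparison gave ratios above 1. In L-Hor-like cells it was 1.677, with 1 of 5 members, Cd74 (58.92 against 26.93 CPM), higher by over 2-fold against 0.967% of genes (1.69% in either direction). In L-Alv-like cells it was 3.232 (2.746 to 3.807), with 3 of 4 members higher by over 2-fold, H2-Aa (77.31 against 16.83 CPM), H2-Eb1 and Cd74, against 0.978% of genes (2.06% in either direction). In fibroblast-like cells it was 2.413 (2.202 to 2.643), with 4 of 5 members higher, H2-Aa, H2-Ab1, H2-DMa and Cd74 (91.66 against 31.22 CPM), against 1.61% of genes (1.92% in either direction). Without barcodes holding 2 immune marker UMIs the L-Alv-like ratio was 2.13 with 1 of 2 members higher, and the fibroblast-like ratio 1.86 with 1 of 4, the member being Cd74 in both. In L-Alv-like barcodes without any such UMI, H2-Aa was at 20.33 against 13.5 CPM (11 and 15 UMIs) and H2-Eb1 at 12.94 against 10.8 CPM (7 and 12 UMIs). Cd74 in these barcodes was at 64.69 against 18.91 CPM (35 and 21 UMIs). L-Hor-like cells without barcodes holding 2 such UMIs had a ratio of 1.736, with 1 of 5 members, Cd74, higher by over 2-fold. Without any such UMI their ratio was 1.879, with 2 of 5 higher, H2-Aa and Cd74. In OVX_E2_P4_PBDE the summed immune markers were at 1.249% of the immune level for L-Alv-like cells and 1.022% for fibroblast-like cells, against 1.158% and 0.3485% in OVX_E2_PBDE, and their part in the class II values was not tested.

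For PBDEs without progesterone (OVX_E2_PBDE over OVX_E2), the summed ratio in macrophage-like cells was 0.759 (0.7387 to 0.7799), with 0 of 6 members past 2-fold against 5.99% of genes. Cd74 had the lowest ratio of the 6, 0.6619 (0.6367 to 0.6881), and without it the ratio of the sum was 0.863. In dendritic-like cells the ratio was 0.8954 (0.8841 and 0.9096 in the Cd209a and Clec9a clusters) with 3.52% of genes past 2-fold, in fibroblast-like cells 0.8382 with 1.39%, in L-Hor-like cells 0.7901 with 1.63% and in L-Alv-like cells 1.425 with 1.39%. No counted member of these 4 classes was past 2-fold.

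For PBDEs with progesterone (OVX_E2_P4_PBDE over OVX_E2_P4), the ratio in macrophage-like cells was 0.4863 (0.465 to 0.5085). There, 2 of 6 members were lower by over 2-fold, H2-Aa (6627 against 13430 CPM) and Cd74 (15430 against 34630 CPM), against 7.72% of genes (13.2% in either direction). Within the C1q cluster, with 3 against 25 cells, the ratio was 0.7812, and within the Lyz1 cluster, with 11 against 9 cells, 0.7025. Both were nearer to 1 than the ratio over the clusters together (3 cells of the higher cluster and 11 of the lower in OVX_E2_P4_PBDE). In dendritic-like cells the ratio was 0.8663, with 0 of 6 members past 2-fold against 2.93% of genes. The direction turned within both clusters, with 1.094 (1.033 to 1.158) in the Cd209a cluster (11 against 9 cells) and 1.05 (0.9905 to 1.113) in the Clec9a cluster (10 against 7 cells).

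In the non-immune classes, the ratio was 1.167 in L-Hor-like cells with 0 of 5 members past 2-fold against 2.67% of genes, and 1.731 in fibroblast-like cells with 0 of 4 against 2.34%. In L-Alv-like cells it was 3.471 (3.021 to 3.983), with 4 of 4 members higher, H2-Aa, H2-Ab1, H2-Eb1 and Cd74 (139.7 against 35.04 CPM), against 1.36% of genes (4.03% in either direction). Without barcodes holding 2 immune marker UMIs it was 1.52 with 0 of 4 members past 2-fold, and in that class 2 barcodes of OVX_E2_P4_PBDE held most of the class II UMIs, as given above. In barcodes without any immune marker UMI, Cd74 was higher by over 2-fold in L-Alv-like cells (1 of 3 members, summed ratio 1.621). The same held in L-Hor-like cells (1 of 5 members, 1.511), whereas fibroblast-like cells had 0 of 4 (1.239).

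Other genes of the pathway were taken from 7 fixed lists with 41 genes, of which 40 were in the files. H2-DMb2 was the only abundant one of the other class II genes. H2-Oa and H2-Ob, which encode the modulator of H2-DM, were at 42.72 and 32.6 CPM in dendritic-like cells against 12.38 and 4.128 CPM in macrophage-like cells. H2-Eb2 had no UMI in the classes examined. Of the proteases, Ctss, which trims the invariant chain, was at 2486 CPM in macrophage-like, 383.3 in dendritic-like and 1240 in plasma-like cells. Cd83, which shields class II molecules from ubiquitination, was at 938.4 CPM in macrophage-like and 511.5 CPM in dendritic-like cells.

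The transcription factor genes of the RFX and NF-Y complexes were not limited to immune cells. Rfx5 was at 4.128 CPM in macrophage-like, 3.372 in dendritic-like and 5.764 in L-Hor-like cells. MHC class I genes were found in every class, with H2-K1 at 1222 CPM in macrophage-like, 839.7 in fibroblast-like, 1337 in L-Hor-like and 521.9 in L-Alv-like cells. B2m, the class I light chain, was at 2993, 2126, 2750 and 907.7 CPM. Ifng, the inducer of class II in other cells, was at 36.74 CPM in T/NK-like cells.

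Of the pathway genes counted in macrophage-like cells, 3 of 10 were lower by over 2-fold in OVX_E2_P4_PBDE than in OVX_E2_P4, against 7.72% of all genes, namely Ctss (841.5 against 2812 CPM), Lgmn (195.4 against 859.2 CPM), another lysosomal protease, and Cd83 (300.5 against 887.8 CPM). The same 3 of 11 were lower in the comparison with OVX_E2_PBDE, which shares the first library, against 7.09% of all genes. The mix of the 2 macrophage-like clusters differed between these libraries. OVX_E2_P4_PBDE had 3 cells of the C1q and 11 of the Lyz1 cluster, against 25 and 9 in OVX_E2_P4 and 17 and 13 in OVX_E2_PBDE. Ctss, Lgmn and Cd83 were not compared within the clusters, and the part of this mix in their ratios was not tested. In OVX_E2_PBDE over OVX_E2, Ctsd was the 1 of 12 that was higher, at 785.8 against 258.2 CPM, against 3.95% of all genes, and the comparisons of OVX_E2 with OVX and of OVX_E2_P4 with OVX_E2 had 0 of 11 and 0 of 12, against 7.21% and 3.58% of all genes in either direction. In dendritic-like cells, Psmb9 of the immunoproteasome was at 431.1 CPM in OVX_E2 and at 184.1 in OVX, 172.4 in OVX_E2_P4 and 208.9 in OVX_E2_PBDE. In OVX_E2 over OVX (18 and 28 cells) it was 1 of 6 counted MHC class I genes, against 10.5% of all genes past 2-fold. The 1 counted interferon-γ signalling gene was also higher there. Over OVX_E2, 1 of 5 class I genes was lower in OVX_E2_P4 and 1 of 6 in OVX_E2_PBDE, against 2.0% and 3.52% of all genes past 2-fold. Cd83 in dendritic-like cells was at 190.2 CPM in OVX_E2_P4_PBDE against 619.8 in OVX_E2_PBDE and 455.1 in OVX_E2_P4. It was the 1 class II turnover gene counted in each comparison, where 5.0% and 2.93% of all genes were past 2-fold in either direction.

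In L-Alv-like cells of OVX_E2 over OVX, 4 of 6 counted MHC class I genes were lower by over 2-fold, H2-K1 (461.8 against 1029 CPM), H2-D1, B2m and Tapbp, against 6.69% of all genes (10.3% in either direction). The OVX side was 32 barcodes with 232363 UMIs in all, and the OVX_E2 side 143 barcodes. In the same comparison 1 of 4 counted antigen processing genes was lower. The 1 counted class II transcription gene was higher, and 0 of 3 interferon-γ signalling genes were past 2-fold. In L-Alv-like cells of OVX_E2_P4_PBDE over OVX_E2_P4, 2 of 7 counted interferon-γ signalling genes were lower by over 2-fold, among them Irf1 (3.726 against 18.22 CPM). Of 8 counted MHC class I genes, 1 was lower, the peptide transporter gene Tap1 (0.9315 against 14.48 CPM), against 2.68% of all genes. The levels of both in OVX_E2_P4_PBDE rest on few UMIs. The class II members were higher, with 61.09% of the class II UMIs of OVX_E2_P4_PBDE in 2 barcodes that held immune marker UMIs. In L-Alv-like cells of OVX_E2_P4 over OVX_E2, 1 of 8 class I and 1 of 7 interferon-γ signalling genes were higher, against 1.89% of all genes in either direction. For OVX_E2_P4_PBDE over OVX_E2_PBDE, 0 of 7 class I genes were past 2-fold. There, 1 of 4 interferon-γ signalling genes was lower, against 2.06% of all genes in either direction. In L-Hor-like cells, Rfxap was higher in OVX_E2_P4_PBDE, with 18.55 CPM against 7.343 in OVX_E2_P4 and 7.856 in OVX_E2_PBDE. It was 1 of 7 counted class II transcription genes in each comparison, with 2.67% and 1.69% of all genes past 2-fold in either direction. In OVX_E2 over OVX, 2 of 6 counted genes of this list were lower by over 2-fold in L-Hor-like cells, against 7.74% of all genes. In fibroblast-like cells of OVX_E2_P4_PBDE over OVX_E2_PBDE, Rfxap was at 23.98 against 10.57 CPM, the only pathway gene higher by over 2-fold of 31 counted, against 1.61% of all genes.

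The genes whose levels were most like those of the chains and Cd74 were other myeloid genes. Over 45 points (cell classes of at least 20 cells in each library, 9 of them immune), the correlation of log2(CPM + 1) with the mean of H2-Aa, H2-Ab1, H2-Eb1 and Cd74 was 0.9727 for H2-DMb1 and 0.9593 for H2-DMa. Outside the members it was highest for H2-DMb2 (0.9668), Ctss (0.9608), Cd83 (0.9607), Il1b (0.9571) and Ccl6 (0.9531), followed by Mpeg1, Bcl2a1d, Cd209a, Napsa and Cfp (0.9512 to 0.9468). The points share libraries and their free RNA, and they fall into an immune and a non-immune cluster, so that these values are a description only.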

How the data were processed

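The authors aligned reads of 10x Chromium 3′ libraries to mm10 with Cell Ranger 2.0.0 and deposited UMI counts per gene and called barcode, which were used as raw counts. Barcodes with under 500 genes, under 1000 UMIs or over 10% mitochondrial UMIs were left out (14317 were kept). Each library was clustered alone in Seurat 5.3.0 (10 principal components, resolution 0.3 for OVX and 0.5 otherwise) without the class II genes, and immune barcodes were clustered again together (resolution 1.0). Clusters were named "X-like" from fixed markers, and limits of the naming, the gates and the motifs were set after the data had been seen. Doublets were not removed. Scrublet in scanpy 1.11.5 called 8 to 64 barcodes per library on its own threshold, and an alternative left out the top 20% of scores.

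Sums have exact Poisson, shares Clopper-Pearson and ratios exact conditional binomial 95% intervals (scipy 1.17.1). A gene was called past 2-fold at 50 or more UMIs over both libraries, with 1 UMI added to each sum, and percents of genes past 2-fold use the same rule. Named genes were the members, pathway genes with the largest ratios in each direction and the 10 genes most alike in level. The procedure was tested on simulated data. The members and lists were chosen with earlier results of these data known.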

Additional observations from a re-analysis of the deposited data

Results flagged for a closer look

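The ratio of summed class II levels for PBDEs added was on opposite sides of 1 without and with progesterone in 2 cell classes, with counting intervals that excluded 1. In L-Hor-like cells it was 0.7901 for OVX_E2_PBDE over OVX_E2 and 1.167 for OVX_E2_P4_PBDE over OVX_E2_P4. In fibroblast-like cells it was 0.8382 and 1.731. The difference was not tested, because each group is 1 library. Without the barcodes holding 2 immune marker UMIs, the first ratio was 0.990 for L-Hor-like cells and 1.09 for fibroblast-like cells, and the second was 1.43 and 1.23.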

How the results depend on the processing

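No paired analysis was possible because each group had 1 library, and for the same reason no library could be left out of a group. In macrophage-like cells the summed ratio of OVX_E2 over OVX (1.039) was 1.12 with a 5% mitochondrial limit, 0.925 at resolution 1.0, 0.985 as a mean over cells, 1.000 when scaled by the median gene, 0.869 with a marker gate, 0.801 in the C1q cluster and 1.17 in the Lyz1 cluster. In the same order of settings, OVX_E2_P4 over OVX_E2 (0.894) was 0.853 with the 5% limit, 0.983 at resolution 1.0, 0.924 scaled, 0.948 without Cd74, 1.34 with the gate, 0.953 and 0.726 in the clusters. OVX_E2_P4_PBDE over OVX_E2_PBDE (0.5728) was 0.724 at resolution 1.0, 0.686 with the gate, 0.605 with the members among the variable genes, 0.963 and 0.528 in the clusters. OVX_E2_PBDE over OVX_E2 (0.759) was 0.731 with the 5% limit, 0.722 at resolution 1.0, 0.863 without Cd74, 0.981 with the gate and 0.966 in the Lyz1 cluster. OVX_E2_P4_PBDE over OVX_E2_P4 (0.4863) was 0.509 with the 5% limit, 0.532 at resolution 1.0, 0.356 without the top Scrublet scores, 0.457 scaled, 0.525 without Cd74, 0.514 with the members among the variable genes, 0.781 and 0.703 in the clusters. Leaving out the top Scrublet scores left under 3 macrophage-like cells in a library of the other 4 comparisons and gave no value there.

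In dendritic-like cells the direction turned for OVX_E2 over OVX (0.8535) in the Clec9a cluster (1.03), for OVX_E2_P4_PBDE over OVX_E2_PBDE (0.8588) without the top Scrublet scores (1.28), and for OVX_E2_P4_PBDE over OVX_E2_P4 (0.8663) at resolution 1.0 (1.07), without the top Scrublet scores (2.36) and in the Cd209a (1.09) and Clec9a clusters (1.05). Elsewhere it turned for OVX_E2_P4 over OVX_E2 in L-Hor-like cells with the 5% limit (0.881) and in L-Alv-like cells with the 5% limit (0.969), the gate (0.736) and the members among the variable genes (0.967). It turned for OVX_E2_PBDE over OVX_E2 in L-Hor-like cells with the gate (1.17), in L-Alv-like cells without the top Scrublet scores (0.893), without immune marker barcodes (0.931) and with the gate (0.50), and in fibroblast-like cells without the top Scrublet scores (1.19), as a mean over cells (1.07), without immune marker barcodes (1.09) and with the gate (1.02). The causes were not tested. The ratios above 1 for progesterone added with PBDEs kept their direction in fibroblast-like and both luminal-like classes under each setting run. The ratio of H2-DMa to H2-DMb1 in L-Hor-like cells stayed between 10.7 and 18.8 under the 6 alternatives run. The ratio of Cd74 to the chains in plasma-like cells was 6.37 to 7.56 under 4 alternatives and 13.2 without myeloid marker barcodes. These 2 sets, the within-cluster ratios, the dendritic-like alternatives, the member counts without immune marker barcodes and the share without barcodes of 10 class II UMIs were added after seeing the data. Counts of UMIs limit Ciita, which had 26, and plasma-like cells, of which there were 15.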
